A study of Mus musculus with 70 samples.

Results

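The arcuate hypothalamic nucleus (ARH) was compared with 4 other hypothalamic regions that were punched from adult mouse brain in the same experiment. The ventromedial hypothalamic nucleus (VMH), the dorsomedial nucleus (DMH), the paraventricular nucleus (PVH) and the lateral hypothalamic area (LHA) were the 4 comparison regions. Libraries were chosen by the region abbreviation in their labels, which gave 14 of the 70 libraries of the series, namely 3 of ARH, 2 of VMH, 4 of DMH, 2 of PVH and 3 of LHA. All 14 came from male C57BL/6 mice (the C57BL/6NTac substrain) at postnatal day 56 on chow, with no treatment or genetic change. Each library held tissue punches pooled from several mice, and mice were shared between regions, so the libraries are not separate animals and p-values measure the spread between such pools. Levels are given as TPM, a transcript abundance scaled for length and for library size, so that all libraries have the same total.

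The ARH lies at the base of the third ventricle, next to the median eminence, where the blood-brain barrier is open to circulating hormones. Its neurons that make proopiomelanocortin suppress feeding, and its neurons that make agouti-related peptide and neuropeptide Y drive it. Other ARH neurons release hormones into the portal blood that set the output of the anterior pituitary, and tanycytes, which are elongated glia of the ventricle wall, line its border.

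The 14 libraries had total estimated counts of 14201960 to 19689276. Of 34677 genes, 17034 reached 1 TPM in at least 2 of the 14 libraries and were tested with limma on log2(TPM + 0.5), with ARH set against the mean of the 4 regions and each region weighted equally. Calls needed a Benjamini-Hochberg adjusted p below 0.05 together with a log2 fold change beyond 1 in either direction. In this comparison 655 genes (3.85% of those tested) were called higher and 315 (1.85%) lower in ARH. These shares are the background for the counts of listed genes below. The lists were chosen with earlier results of these data known, which can favour called members. The median log2 fold change over all tested genes was 0.08. Fold changes below are on the log2(TPM + 0.5) scale, which understates the change of genes near 0 TPM. Those given for edgeR or DESeq2 rest on estimated counts instead. The libraries labelled VMH held more of the lateral-area markers Hcrt and Pmch than those labelled DMH, as described below, and without VMH the comparison gave 860 genes higher and 437 lower. In bulk tissue, fewer cells of a type and less RNA per cell cannot be told apart.

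The gene-level values of all 3 markers that define the nucleus were far above the other regions. Pomc, the precursor of the melanocortin peptides, had 554, 672 and 426 TPM in ARH, against 2.65 to 17.4 TPM (median 4.65) in the 11 other libraries. Agrp, the antagonist of melanocortin receptors, had 107, 200.0 and 87.7 TPM in ARH and at most 2.1 TPM elsewhere. For both genes the groups were far from overlapping, and VMH replicate 1 was the highest other library for Pomc. The log2 fold change was 6.56 ± 0.27 (SE) for Pomc (adjusted p = 8e-08) and 6.18 ± 0.35 for Agrp (adjusted p = 6.2e-07). The third marker, Kiss1, which encodes the kisspeptin peptides that drive the reproductive axis, had 13.3, 12.6 and 18.8 TPM in ARH, against 0 to 2.63 TPM in the others (log2 fold change 3.89 ± 0.37, adjusted p = 1.5e-05). This Kiss1 value was the exact sum of 5 transcripts, of which 3 are annotated as Gm28040, a read-through of Golt1a and Kiss1 on chromosome 1. Transcripts annotated to Kiss1 alone did not show this pattern: they were listed at 0 in ARH replicates 1 and 2 and reached 0.067 TPM in ARH replicate 3, and their highest value, 1.16 TPM, was in DMH replicate 3, so the Kiss1 level rests on how reads were divided within this locus.

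**Figure D1:**
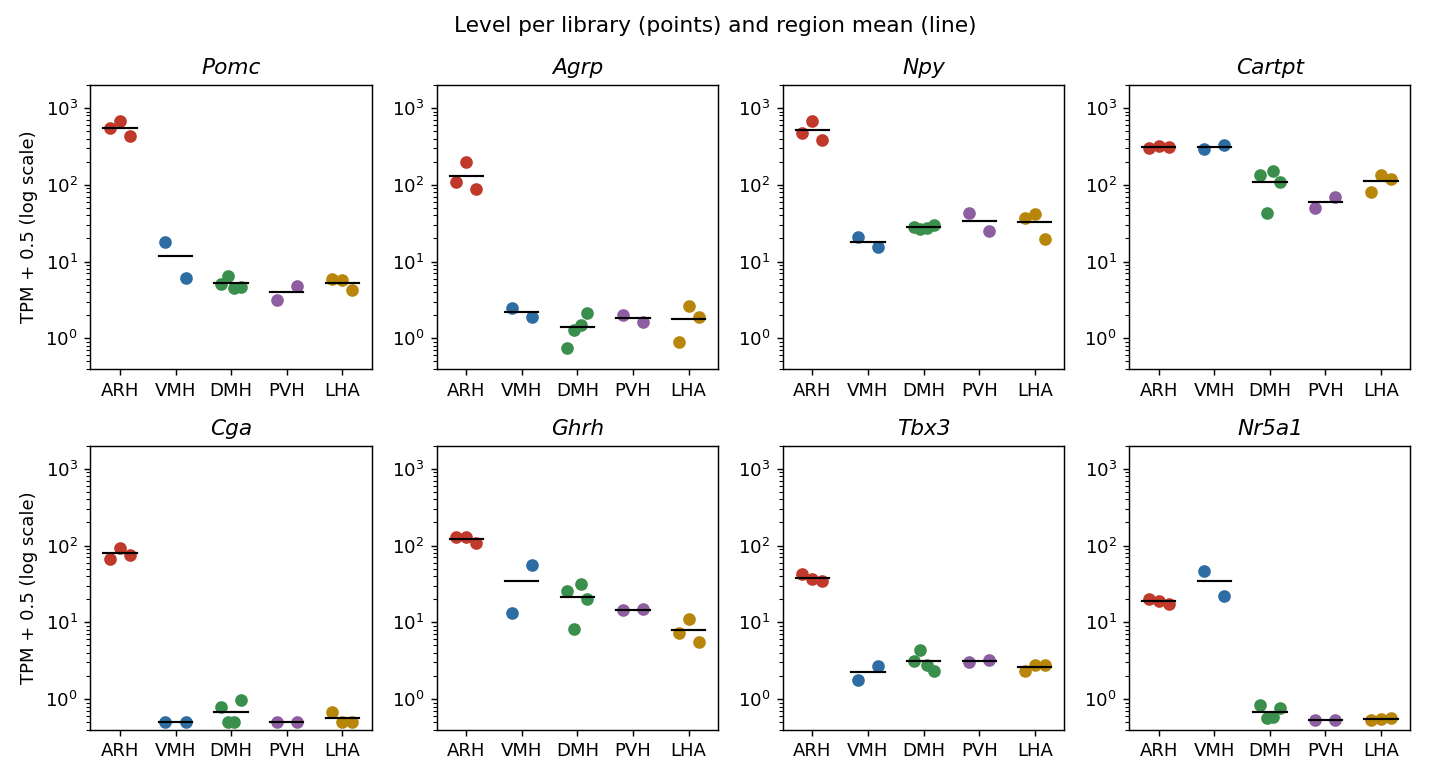
TPM + 0.5 on a log axis for 8 genes in the 14 libraries, with 1 point per library and a line at the mean of each region. Pomc, Agrp, Npy, Cga, Ghrh and Tbx3 lie higher in the 3 ARH libraries than in all 11 others, whereas Cartpt and Nr5a1 are as high or higher in VMH.

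Npy, the orexigenic peptide made by the Agrp neurons, had 479, 684 and 382 TPM in ARH and 14.8 to 42.9 TPM (median 26.6) in the 11 others. Its log2 fold change was 4.23 ± 0.23 (adjusted p = 4.4e-07). Unlike Agrp, Npy was clearly measured in all 11 other libraries, with VMH as the lowest region. Cartpt, which encodes the CART peptides, had 298, 324 and 313 TPM in ARH. The VMH libraries were as high, at 294 and 334 TPM, while the 9 libraries of DMH, PVH and LHA lay between 43 and 152 TPM. Cartpt was therefore called higher against the mean of the 4 regions (log2 fold change 1.40 ± 0.30, adjusted p = 0.0035) and not against VMH, where the log2 difference was -0.01. The call against the mean was lost in limma with libraries weighted equally (adjusted p = 0.057).

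Apart from the feeding peptides, the highest-ranking genes included several that encode secreted or developmental proteins. In all, 1447 genes (8.49% of those tested) had all 3 ARH libraries above the 11 others, and 443 (2.6%) were also called. All 15 genes with the largest increases among the latter had their highest mean in ARH of the 18 adult regions of the series, a rank that their selection favours. ARH was highest of the 18 for 306 of the 443 genes (69.1%) and for 13.4% of all tested genes, and highest of the 5 hypothalamic regions for 33.4% of all tested genes. Cga, the common alpha subunit of the pituitary glycoprotein hormones, ranked first with 67.3, 93.7 and 75.8 TPM in ARH. The 11 other libraries held 0 to 0.471 TPM of Cga, and the 4 libraries of VMH and PVH were all listed at 0. The fitted log2 fold change of 7.16 ± 0.23 (adjusted p = 8.1e-09) therefore depends on the pseudocount. Prlh, which encodes prolactin-releasing hormone, had 33.7, 22.8 and 24.7 TPM in ARH and 7.07 TPM in VMH replicate 2, and was listed at 0 in the other 10 libraries (log2 fold change 5.27 ± 0.55, adjusted p = 2.8e-05). On estimated counts DESeq2 did not call Prlh (adjusted p = 0.16).

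Crabp1, a binding protein of retinoic acid, had 84.2, 83.2 and 93.9 TPM in ARH and 0.828 to 5.69 TPM elsewhere (log2 fold change 5.00 ± 0.29, adjusted p = 6.7e-07). Ces1d, a carboxylesterase, had 22.1, 24.5 and 19.9 TPM in ARH and at most 2.92 TPM elsewhere. Fndc3c1 had 8.35, 12.9 and 9.47 TPM in ARH and at most 0.0234 TPM in the other 11 libraries. All 3 were separated from the other libraries. Bpifa1, a secreted airway protein, varied more between the ARH libraries, with 29.6, 82.6 and 2.37 TPM in ARH and at most 0.112 TPM elsewhere. Wfdc2, another secreted epithelial protein, had 20.9, 19 and 7.87 TPM in ARH, and Cyp2f2, a cytochrome P450 enzyme, had 17, 19.1 and 12.5 TPM. Both were at or under 0.8 TPM in the other libraries. Pitx1, a homeobox gene of the pituitary, had 4.54, 10.8 and 7.33 TPM in ARH and at most 0.101 TPM elsewhere.

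**Figure D2:**
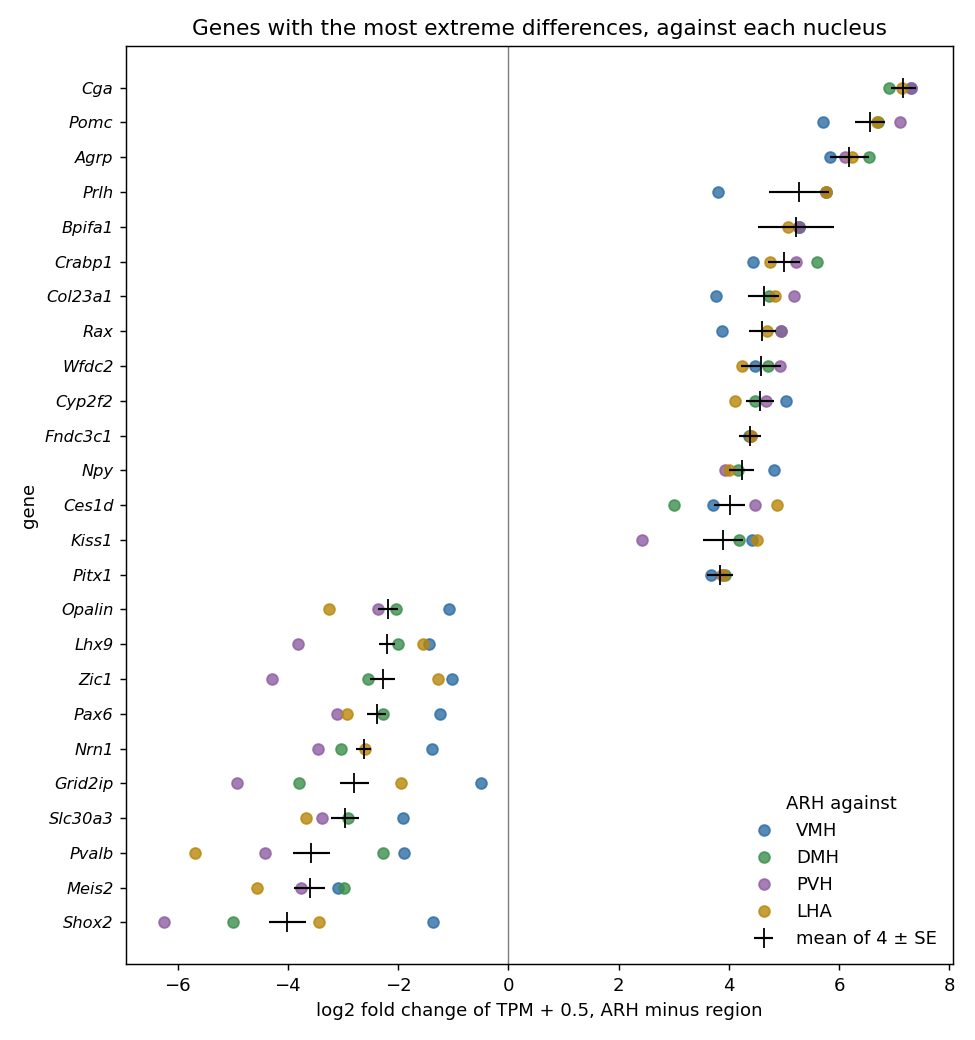
Log2 fold change of TPM + 0.5 between ARH and each of the 4 regions (coloured points), and between ARH and their mean with its SE (black), for the 15 genes with the largest increases and the 10 with the largest decreases. The 15 upper genes lie above 2 against every region, while among the lower genes the VMH point is the closest to 0 for all but Meis2; differences from regions where a gene is listed at 0 depend on the pseudocount.

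Promoter sequences are shown for 4 hormone genes whose levels set ARH apart, so that the sequence next to each start site can be read beside the values above. They come from RefSeq on GRCm38.p6, which held a promoter for 7 of 8 genes looked up (Agrp had none), and span 250 bases before to 50 bases after the start. Ghrh, described below, has 2 starts in that table and the start nearer the coding exons is given. Capitals mark, on either strand, a TATA box (TATAAA), a homeodomain core (TAATTA), a core of NKX2-1 sites (CAAGTG) and a nuclear receptor element (AAGGTCA). The windows are chr12:3954695-3954994 (plus strand) for Pomc, chr6:49822460-49822759 (plus) for Npy, chr2:157337377-157337676 (minus) for Ghrh and chr4:34893529-34893828 (plus) for Cga.
Pomc: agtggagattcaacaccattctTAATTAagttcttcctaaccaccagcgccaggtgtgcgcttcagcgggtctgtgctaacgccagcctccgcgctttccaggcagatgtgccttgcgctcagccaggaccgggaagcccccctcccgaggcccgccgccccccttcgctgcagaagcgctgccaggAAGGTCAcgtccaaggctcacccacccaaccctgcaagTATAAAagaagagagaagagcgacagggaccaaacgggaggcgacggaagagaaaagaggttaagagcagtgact
Npy: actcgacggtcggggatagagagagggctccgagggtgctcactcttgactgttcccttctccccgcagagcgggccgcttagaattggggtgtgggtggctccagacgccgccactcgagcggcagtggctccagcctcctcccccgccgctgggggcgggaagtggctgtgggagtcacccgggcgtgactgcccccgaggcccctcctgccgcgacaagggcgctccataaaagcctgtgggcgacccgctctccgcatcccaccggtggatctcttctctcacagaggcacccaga
Ghrh: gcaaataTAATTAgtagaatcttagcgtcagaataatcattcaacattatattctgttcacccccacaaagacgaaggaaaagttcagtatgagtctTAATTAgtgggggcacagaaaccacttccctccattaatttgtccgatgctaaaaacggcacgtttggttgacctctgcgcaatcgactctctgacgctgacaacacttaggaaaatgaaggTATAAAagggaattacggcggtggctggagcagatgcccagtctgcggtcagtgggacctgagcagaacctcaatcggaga
Cga: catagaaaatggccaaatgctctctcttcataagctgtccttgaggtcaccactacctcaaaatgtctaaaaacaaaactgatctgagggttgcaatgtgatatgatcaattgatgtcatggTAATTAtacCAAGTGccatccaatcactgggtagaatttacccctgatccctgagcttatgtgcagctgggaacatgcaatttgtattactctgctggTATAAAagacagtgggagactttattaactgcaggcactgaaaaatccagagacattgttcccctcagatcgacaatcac
The TATA-box letters TATAAA began 25 bases before the start in Pomc, 31 in Ghrh and 30 in Cga, and were present in 13.6% of all 32851 promoters of the table. TAATTA was present in the same 3 windows, at 2 places in Ghrh, and in 5.29% of all promoters. CAAGTG matched in Cga and in 13.6% of all promoters. AAGGTCA matched in Pomc and in 4.72% of all promoters. None of the 4 motifs was found in the Npy window, and a match describes letters only.

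Genes of the growth hormone axis formed the next group. Of its 9 genes, 5 were called higher and 0 lower, beside 3.85% and 1.85% of all tested genes, with a median log2 fold change of 1.06. Against VMH 1 of the 9 was called higher, and against DMH, PVH and LHA 6 each. Ghrh, the releasing hormone for growth hormone, had 129, 129 and 107 TPM in ARH, against 5.04 to 56.1 TPM (median 13.8) in the others (log2 fold change 2.97 ± 0.42, adjusted p = 0.00023). The groups did not overlap, but VMH replicate 2, at 56.1 TPM, was far above VMH replicate 1, at 12.8 TPM, and Ghrh was not called against VMH (adjusted p = 0.061). Ghsr, the ghrelin receptor, had 6.71, 7.62 and 6.59 TPM in ARH and 0.45 to 3.17 TPM elsewhere (log2 fold change 2.00 ± 0.17, adjusted p = 9.2e-06). Ghr, the growth hormone receptor, and the homeobox gene Gsx1 were also called higher, by 1.25 and 1.78. The orphan receptor Gpr101 (1.06) was just past the fold threshold and came to 0.98, 0.97 and 0.97 without ARH replicate 3, PVH replicate 1 or VMH replicate 1. Sst, which encodes somatostatin, was separated in all libraries, with 709.9, 973 and 797 TPM in ARH against 257 to 677 TPM, and its log2 fold change of 0.99 lay at the fold threshold, which it passed without ARH replicate 1 (1.09) or VMH replicate 1 (1.06), and just reached without ARH replicate 3 (1.01), DMH replicate 3 (1.0) or LHA replicate 1 or 2 (1.01 for both).

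Genes of the reproductive axis moved in part. Of 9 genes in a list built on the neurons that make kisspeptin, neurokinin B and dynorphin, 4 were called higher and 0 lower (median 0.98). These were Kiss1, Pdyn, Esr1 and Gnrh1, and the Kiss1 call has the limit given above. On estimated counts, without Kiss1, edgeR and DESeq2 each called 3 of 8 higher. Esr1, estrogen receptor alpha, had 12.6, 10.8 and 13.6 TPM in ARH and 2.06 to 4.32 TPM elsewhere (log2 fold change 1.76 ± 0.12, adjusted p = 2.2e-06), and was called against each of the 4 regions. Pdyn, the dynorphin precursor, had 105, 104 and 107 TPM in ARH and almost the same level in VMH, at 87.4 and 105 TPM, with at most 35 TPM in the other 9 libraries. Tac2, the neurokinin B precursor, had 61.4, 73.3 and 73.2 TPM in ARH and overlapped the others (8.77 to 75 TPM). Its log2 fold change was 0.98 and it was not called, although it was 1.06 without ARH replicate 1, 1.04 without PVH replicate 1, 1.01 without DMH replicate 1 and 1.09 without VMH replicate 2, and was then called. Tacr3, the receptor of neurokinin B, was lower in all 3 ARH libraries, at 5.76, 5.61 and 5.57 TPM, than in the 11 others, whose lowest was 5.86 TPM, but its log2 fold change of -0.82 did not pass the fold threshold. Gnrh1, the releasing hormone for gonadotropins, was low, with 6.05, 8.28 and 5.48 TPM in ARH and at most 3.42 TPM elsewhere, and was called higher (1.93 ± 0.42, adjusted p = 0.0039).

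Dopamine neurons of the ARH inhibit prolactin release. Of 7 tested genes of this group 4 were called higher and 0 lower (median 1.02). The vesicular monoamine transporter Slc18a2 had 33.9, 23.7 and 38.4 TPM in ARH and 2.97 to 19.4 TPM elsewhere (log2 fold change 1.89 ± 0.22, adjusted p = 6e-05). The dopamine transporter Slc6a3 had 7.91, 5.54 and 7.39 TPM in ARH and at most 4.02 TPM elsewhere (2.28 ± 0.22, adjusted p = 1.7e-05). The decarboxylase Ddc (1.14) and the prolactin receptor Prlr (1.02) were called as well, Prlr at the fold threshold, with 0.98, 0.97, 0.94 and 1.0 and no call without ARH replicate 1, ARH replicate 3, PVH replicate 1 or VMH replicate 1. Th, the rate-limiting enzyme of dopamine synthesis, had 59.1, 68.3 and 53.6 TPM in ARH, inside the range of the others (14 to 105 TPM), and was not called (0.84). It was called, at 1.03, without VMH replicate 2, the library at 105 TPM.

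**Figure D3:**
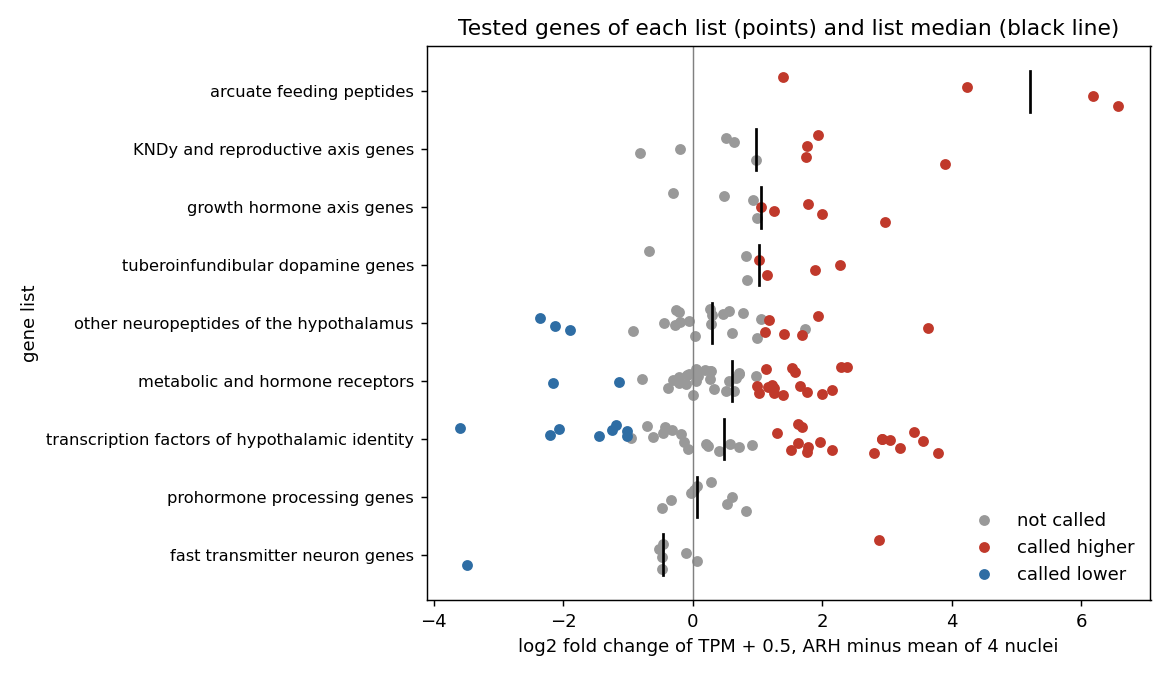
Log2 fold change of each tested gene (points) against the mean of the 4 regions, by gene list, coloured by its call, with a black line at the median of each list. The feeding peptides have the highest median (5.2), prohormone processing genes lie near 0 with 0 calls, and the transcription factors spread in both directions.

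Among 27 tested genes for other neuropeptides, 6 were called higher and 3 lower (median 0.3). Tac1, the substance P precursor, had 288, 174 and 306 TPM in ARH and 47.6 to 133 TPM elsewhere, and was called against each of the 4 regions (log2 fold change against the mean 1.68 ± 0.23, adjusted p = 0.0002). Adcyap1, Npvf, Nmu, Gnrh1 and Avp were also called higher. Adcyap1 (1.12) came to 1.0 without VMH replicate 2, and Npvf (1.18) to 1.1 and 1.02 without ARH replicate 1 or 3, each with no call. Avp, which encodes vasopressin, was very uneven, with 464, 1904 and 228 TPM in ARH, 409 and 7.61 TPM in VMH, and 221 and 1069 TPM in PVH. Its log2 fold change of 3.64 had an SE of 1.16 (adjusted p = 0.031) and was 0.27 against PVH. The call was lost without ARH replicate 1, ARH replicate 2 or PVH replicate 1, with adjusted p of 0.075, 0.16 and 0.061. Oxt, for oxytocin, was as uneven (342, 615 and 113 TPM in ARH, up to 2075 TPM in PVH) and was not called (adjusted p = 0.15).

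Crh, Hcrt and Ucn3 were called lower. Hcrt lost the call with edgeR (adjusted p = 0.28), with libraries weighted equally (0.41) and without LHA (0.15), and Ucn3 with libraries weighted equally (0.24) and without PVH (0.057). Crh, the releasing hormone for corticotropin, had 1.02, 1.09 and 1.57 TPM in ARH and 1.95 to 21.5 TPM elsewhere, highest in PVH (log2 fold change -1.90 ± 0.23, adjusted p = 8.6e-05), and was called lower against each of the 4 regions. Hcrt, which encodes the orexins of the lateral area, had 13.2, 47.7 and 40.9 TPM in ARH. In the others it ran from 0.276 TPM in PVH replicate 2 to 1890.0 TPM in LHA replicate 3, and the VMH libraries held 659 and 939 TPM. Hcrt was accordingly lower than LHA by a log2 difference of -5.52 and higher than PVH by 4.92. Pmch, the precursor of melanin-concentrating hormone and another marker of the lateral area, had 660.5, 829.8 and 740.2 TPM in ARH and 3454 and 3595 TPM in VMH, so both markers of the lateral area were high in the libraries labelled VMH.

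Of 42 receptors and signalling genes for feeding signals and hormones, 16 were called higher and 2 lower, beside 3.85% and 1.85% of all tested genes. The median log2 fold change was 0.6, beside 0.08 for all tested genes, and the choice of members can favour such an excess. Against VMH 8 were called higher, beside 13 against DMH, 15 against PVH and 17 against LHA. Mc3r, a melanocortin receptor, had 13.8, 10.7 and 12.4 TPM in ARH and 0.887 to 6.2 TPM elsewhere (2.15 ± 0.16, adjusted p = 2.7e-06), with VMH next. Mc4r, the other melanocortin receptor of feeding circuits, had 2, 2.61 and 2.59 TPM in ARH and 1.03 to 2.84 TPM elsewhere, and was not called (0.33, adjusted p = 0.25). Lepr, the leptin receptor, had 7.28, 10.5 and 5.27 TPM in ARH against 1.38 to 8.01 TPM (median 2.17), and was called higher (1.39 ± 0.37, adjusted p = 0.012). The groups overlapped because DMH replicate 1 reached 8.01 TPM, and the difference was not called against VMH or DMH. Without ARH replicate 2 the call against the mean was lost (1.15, adjusted p = 0.073). Socs3, a feedback inhibitor of leptin signalling, was called higher (1.54), as was Irs4, an adaptor of insulin signalling (2.29), whose 95.4, 105 and 119 TPM stood above 9.45 to 46.9 TPM.

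Of the receptors of gut and feeding peptides, Glp1r, the receptor of glucagon-like peptide 1, had 7.53, 9.46 and 9.12 TPM in ARH and 2.72 to 5.26 TPM elsewhere (1.25 ± 0.14, adjusted p = 6e-05), and was called against all 4 regions. The neuropeptide Y receptors Npy1r and Npy2r were called higher by 1.16 and 1.65. Npy2r had 31.4, 31.4 and 31 TPM in ARH and 4.89 to 17.9 TPM elsewhere. The ubiquitin ligase component Asb4 had 77.5, 76.9 and 91.9 TPM against 6.63 to 47.9 TPM (2.39 ± 0.28, adjusted p = 7e-05). Both lower genes, Htr2c and Ramp3, had different patterns. Htr2c, the serotonin receptor 2C, was lower in all 3 ARH libraries, at 21.1, 15.1 and 22.1 TPM against 27.9 to 86.8 TPM (-1.14 ± 0.13, adjusted p = 5.5e-05), though without ARH replicate 2 its fold change was -0.98. Ramp3, an accessory protein of calcitonin-family receptors, was at 6.6, 5.29 and 7.28 TPM in ARH and 2.5 and 6.18 TPM in VMH, and at 18.2 to 94.1 TPM in the other 9 libraries.

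Transcription factors of hypothalamic identity separated the regions in both directions. Of 40, 17 were called higher and 8 lower (median 0.49), beside 3.85% and 1.85% of all tested genes. Against VMH only 4 were called higher and 5 lower. The counts were 17 and 8 against DMH, 16 and 8 against PVH, and 17 and 8 against LHA. Tbx3, a T-box factor of ARH neurons and tanycytes, had 42.1, 36.2 and 33.9 TPM in ARH and 1.28 to 3.9 TPM elsewhere (3.79 ± 0.18, adjusted p = 2.4e-07), and differed by 3.6 to 4.1 from each region. Six6, a homeobox gene of the ventral forebrain, had 9.11, 12.7 and 7.48 TPM in ARH and at most 2.75 TPM elsewhere (3.41 ± 0.22). Nkx2-1, which specifies the ventral hypothalamus, had 24.7, 42.1 and 43.4 TPM in ARH, 20.1 and 24.3 TPM in VMH, and at most 12.9 TPM in the other regions. Bsx, a homeobox factor of Agrp neurons, had 21.1, 20.5 and 24.4 TPM in ARH, and VMH replicate 2 and the DMH libraries came close, at up to 17.1 TPM. Isl1, Otp, Nkx2-4, Hmx2, Hmx3 and Gsx1 were also called higher.

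Nr5a1 and Fezf1, both markers of VMH neurons, were called higher in ARH against the mean (3.55 and 2.93), with low levels in 3 of the 4 regions. Nr5a1 had 19.6, 18.3 and 16.8 TPM in ARH and 45.9 and 21.4 TPM in VMH, and at most 0.346 TPM in the 9 libraries of DMH, PVH and LHA. Against VMH neither was called, with log2 differences of -0.77 and -0.25. In the VMH marker list, 4 of 8 genes were called higher against the mean (Nr5a1, Fezf1, Sox14 and Adcyap1) and 0 against VMH. In the DMH marker list, 6 of 7 were called higher against the mean, and 4 against DMH itself, with a summed level of 99 and 270.2 TPM in VMH and 36.5 to 101 TPM in DMH, so that VMH replicate 2 stood above the DMH libraries and VMH replicate 1 lay within their range.

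Genes of prohormone processing showed no called difference from the mean of the 4 regions. Of 9 genes of this kind, 0 were called in either direction by limma, edgeR or DESeq2, while 5 had an unadjusted limma p under 0.05. Against single regions limma called 1 of the 9 higher than PVH and 1 higher than LHA. Pcsk1, the convertase that begins the processing of proopiomelanocortin, had the largest log2 fold change, at 0.82, and was higher in ARH than in all 11 other libraries. A list of 8 transmitter genes, mostly of fast transmitters, had a median log2 fold change of -0.47. It included 1 higher, Hdc, the enzyme of histamine synthesis (96.9, 47.9 and 92.5 TPM against 1.47 to 43.7 TPM, 2.88 ± 0.41). Hdc is also counted among the ependymal markers below. The list held 1 lower gene, Slc17a7, a vesicular glutamate transporter (1.99, 0.68 and 0.475 TPM against 1.56 to 51.7 TPM, -3.48 ± 0.49). Slc17a7 was also low in VMH, at 1.56 and 1.91 TPM, and was not called against VMH (log2 difference -0.65, adjusted p = 0.68).

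In the other direction, 762 genes (4.47%) had all 3 ARH libraries below the 11 others, and 157 (0.922%) were also called. The 10 of these with the largest decreases are given here. Shox2, a homeobox gene, had 0.543, 0.395 and 0.441 TPM in ARH and 1.55 to 73.4 TPM elsewhere (-4.01 ± 0.33, adjusted p = 6.6e-06), highest in PVH. Meis2, a homeobox cofactor, had 3.65, 5.46 and 2.68 TPM in ARH and 18.9 to 121 TPM elsewhere (-3.60 ± 0.28, adjusted p = 4.4e-06), with differences of -3.09 against VMH and -2.98 against DMH. Pvalb, the calcium buffer parvalbumin, had 1.98, 3.55 and 1.68 TPM in ARH and 6.3 to 220.4 TPM elsewhere, highest in LHA (-3.57 ± 0.33). The regulators Pax6, Zic1 and Lhx9 had log2 fold changes of -2.39, -2.28 and -2.20. Those of Nrn1, which encodes neuritin, of the zinc transporter Slc30a3, of the scaffold gene Grid2ip and of Opalin, a myelin gene, were -2.62, -2.96, -2.79 and -2.19. Against VMH alone, Shox2, Grid2ip and Zic1 were not called.

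The size of the difference depended on the region set against ARH. The number of genes called higher and lower was 285 (1.67%) and 51 (0.299%) against VMH, 578 (3.39%) and 372 (2.18%) against DMH, 847 (4.97%) and 545 (3.2%) against PVH, and 1229 (7.21%) and 560 (3.29%) against LHA. These 4 comparisons share the ARH libraries and are set side by side only. When TPM were rescaled with TMM factors, the LHA comparison gave 974 higher and 708 lower, so that the share of its calls that were higher went from 68.7% to 57.9% (58.25% with DESeq2, 1130 and 810 genes). The count against VMH rests on its 2 libraries, and without VMH replicate 1 it was 135 higher and 24 lower, and without VMH replicate 2 it was 294 and 97. Without PVH replicate 1 the comparison with PVH gave 549 higher genes. Correlations of log2 levels between single libraries gave the same order, from 0.952 to 0.963 between ARH and VMH to 0.931 to 0.940 between ARH and LHA. Of the 655 genes called higher against the mean, 390 (59.5%) had VMH as the next highest region, where VMH was the highest of the 4 for 41.2% of all tested genes. In total 180 genes were called higher and 28 lower against each of the 4 regions.

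**Figure D4:**
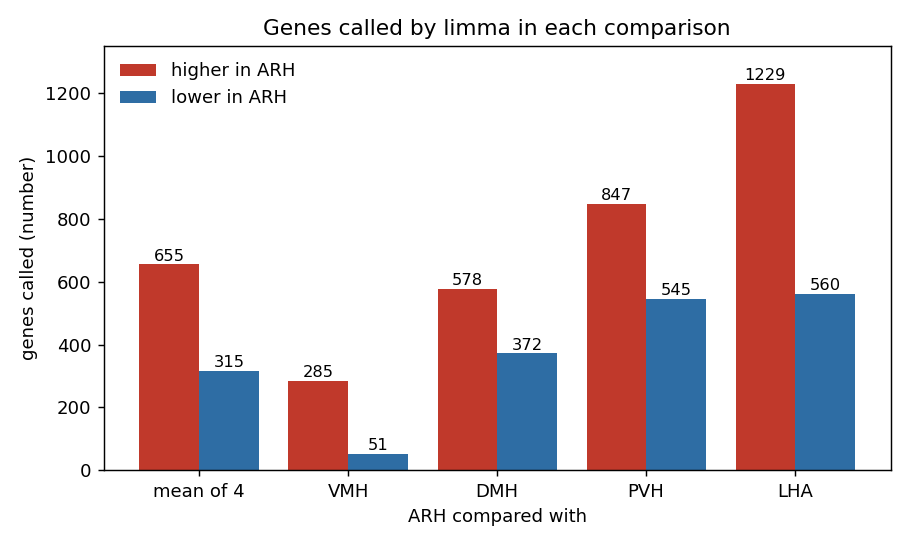
Number of genes called higher (red) and lower (blue) in ARH by limma, against the mean of the 4 regions and against each region. VMH has the fewest calls (285 and 51) and LHA the most (1229 and 560).

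Markers of several other cell types that a punch at the ventricle and brain surface can hold also differed. Markers of tanycytes were higher in ARH, with 12 of 20 called higher and 0 lower, a summed level of 714.7 to 812.9 TPM in ARH and 282 to 372.1 TPM in the others. Rax, a homeobox gene that defines these cells, had 11.1, 22.6 and 16.5 TPM in ARH and at most 0.767 TPM elsewhere (4.61 ± 0.24, adjusted p = 2.8e-07). Col23a1, a collagen of tanycytes, had 47.3, 77.8 and 54.6 TPM against 0.876 to 5.01 TPM (4.63 ± 0.28, adjusted p = 7.4e-07).

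Of 12 tested pituitary markers 7 were called higher (Cga, Pitx1, Lhb, Fshb, Tshb, Tbx19 and Lhx3) and 0 lower, with a summed level over all 16 of 413.8 to 450 TPM in ARH and 221.3 to 285.4 TPM in the others. Most of this sum was Chgb, a chromogranin that neurons also express, with 288 to 313 TPM in ARH and 175 to 277 TPM elsewhere. The hormone genes that define somatotrophs and lactotrophs were low: Gh had 0.771, 7.39 and 15.6 TPM in ARH and up to 12.4 TPM in LHA, Prl had at most 2.4 TPM in ARH, and neither was called in the main fit. On estimated counts edgeR called both higher (3.41 for Gh, adjusted p = 0.017, and 3.9 for Prl, adjusted p = 0.037). Limma called both with library-number runs as a block (2.92 and 1.63) or without the region LHA (2.7 and 1.52). Both were also called higher without ARH replicate 1 (3.41 and 1.84) or LHA replicate 1 (2.68 and 1.55), and Gh also without PVH replicate 1 (2.75). Pou1f1, the defining factor of somatotrophs and lactotrophs, was listed at 0 in 2 ARH libraries and at 0.146 TPM in the third. Of 11 pituitary markers tested on counts, edgeR called 9 higher and DESeq2 called 7. Tshb, of thyrotrophs, had 6.1, 7.62 and 6.77 TPM in ARH and up to 3.89 TPM elsewhere, a log2 fold change of 1.60 that was absent from the estimated counts (-0.2 with edgeR). Lhb, a gonadotropin subunit, was called at 1.90 and lost the call without ARH replicate 2 or 3 (adjusted p = 0.052 and 0.069). The part of these cells in the high Cga and Pitx1 was not tested.

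Meningeal fibroblast markers were higher in ARH for 8 of 9 genes, with a summed level of 2454 to 5766 TPM against 316.3 to 2517 TPM, most of it Ptgds, a prostaglandin D synthase (5291, 3620.0 and 2179 TPM in ARH). Dcn, a matrix proteoglycan, had 75.5, 69.5 and 56.2 TPM against 6.09 to 18.3 TPM (2.73 ± 0.14, adjusted p = 2.4e-07). Markers of oligodendrocytes went the other way, with 8 of 9 called lower against the mean. Their summed level was 1045 to 1729 TPM in ARH and 1584 to 14410 TPM in the others, highest in LHA. Against VMH 1 of the 9 was called lower, and against DMH, PVH and LHA 8 each. Mbp, a myelin protein gene, had 637, 798 and 455 TPM in ARH, and VMH replicate 2, at 704 TPM, lay within that range. Of 6 neuron markers 0 were called against the mean by limma or edgeR and 1 by DESeq2, and 5 had an unadjusted limma p under 0.05, while limma called 1 lower against PVH and 1 lower against LHA. In ARH 4 of the 6 were below all 11 other libraries, and the summed level was 1897 to 2057 TPM in ARH and 2272 to 3398 TPM in the others. The part of these differences in cell content in the other calls was not tested. Of 5 haemoglobin genes, 8 astrocyte markers and 7 microglia markers, 0 were called against the mean by limma, edgeR or DESeq2, and 3, 5 and 2 of them had an unadjusted limma p under 0.05. Against single regions limma called 1 astrocyte marker higher than DMH and 1 lower than LHA. Ependymal and choroid plexus markers were called higher for 3 of 8 and 3 of 6 tested genes, beside 3.85% of all tested genes. The choroid plexus list held 1 gene called lower, Otx2. The summed ependymal level was 304 to 371.7 TPM in ARH, inside the 108.2 to 545.8 TPM of the others, and 0 of 8 were called against DMH. Of 11 vascular markers 1 was called higher, but the median log2 fold change was -0.38 and only 3 of 11 lay above 0. Their summed level was 204 to 227.7 TPM in ARH and 224.7 to 335.7 TPM in the others.

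**Figure D5:**
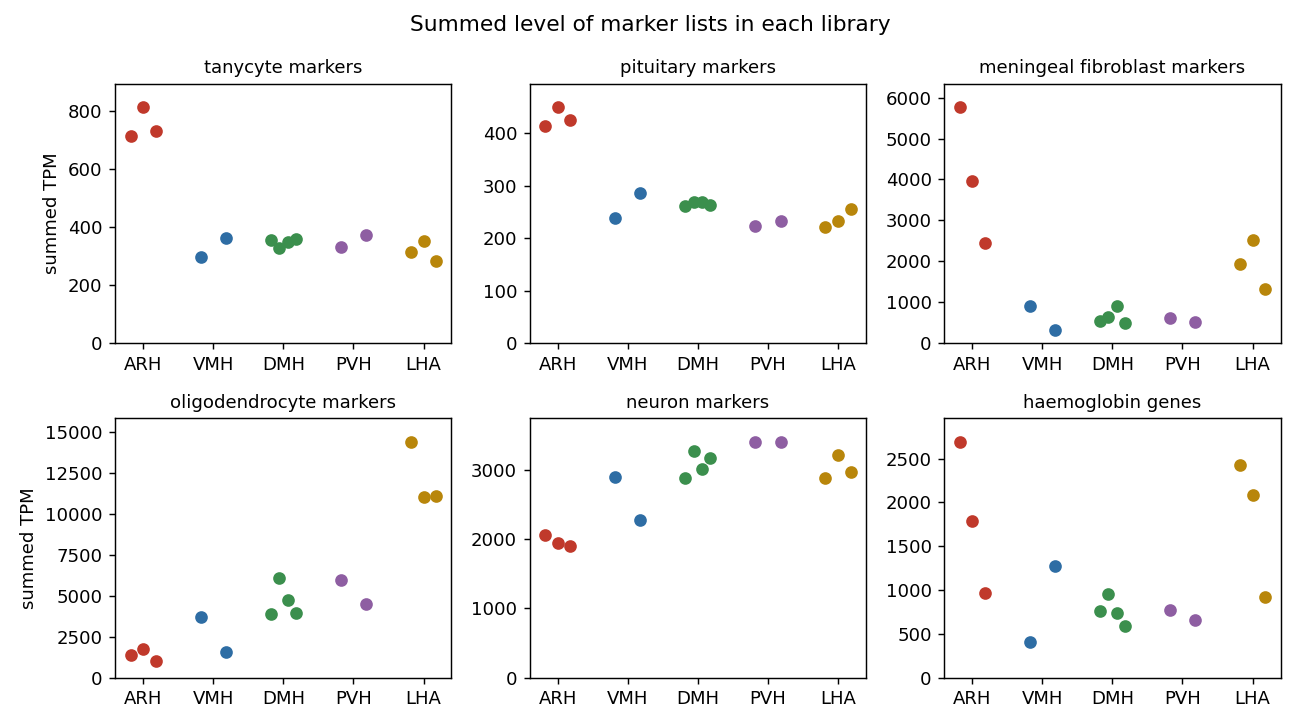
Summed TPM of 6 marker lists in each of the 14 libraries, by region, with axes from 0. The 3 ARH libraries are above all others for tanycyte and pituitary markers and below all others for neuron markers, and oligodendrocyte markers are highest in LHA.

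The labels carry a library number that falls into 4 runs, and 3 of these hold 1 ARH library each beside libraries of other regions. Beside ARH replicate 1 these were VMH, DMH and LHA, beside replicate 2 VMH and DMH, and beside replicate 3 DMH, PVH and LHA. Differences within the 3 runs are thus against unlike sets of regions, and none is against all 4. Of the 655 genes called higher, 640 were higher in ARH within all 3 of these runs, and of the 315 called lower, 308 were lower, which the calling of these genes on the same libraries favours. The log2 difference passed 1 in all 3 runs for 300 and 118 of them. Within the runs Pomc differed by 6.50, 6.23 and 6.54, Agrp by 5.87, 6.69 and 5.56, and Npy by 4.21, 4.86 and 3.97 on the log2 scale. Whether a run was a batch of collection or sequencing is not given by the labels.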

How the data were processed

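Single-read libraries of mRNA from frozen tissue punches were quantified by the authors with Kallisto against the cDNA of GRCm38, after base calling with CASAVA 1.8.2. The deposited gene values are TPM, made by summing transcripts, and the deposited estimated counts are per transcript and not normalized. Kallisto divides reads between transcripts by likelihood, so genes that share sequence can trade reads. Transcripts were assigned to genes with GENCODE M21, and summed counts were rounded. This assignment missed the deposited gene TPM by over 1% for 333 of 32244 gene names, including Kiss1.

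Genes with at least 1 TPM in at least 2 of the 14 libraries were tested on log2(TPM + 0.5) with limma 3.58.1 in R 4.3.3 (trend, 1 group per region), with Benjamini-Hochberg adjustment over 17034 genes. Alternatives used edgeR 4.0.16 and DESeq2 1.42.0 on estimated counts, other pseudocounts and filters, TMM rescaling, blocks, other library sets and leaving out each library or region. On simulated data, 88 of 100 genes changed by 1.5 and 91 of 100 changed by 3 (log2) were called, and 1 unchanged gene. There, all regions shared the same mean for unchanged genes, and noise was independent between libraries. The real regions differ and share mice, so this does not measure the rate of false calls in the real data.

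Named genes were list members described by role, and the 15 largest increases and 10 largest decreases among called genes separated in all libraries with at least 5 TPM. The members and lists were chosen with earlier results of these data known. Embryonic, stem cell and other adult libraries were not used here, except adult region means for ranks and 1 alternative fit.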

Additional observations from a re-analysis of the deposited data

Results flagged for a closer look

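Among DMH, the one region here with 4 libraries, a library stood apart from the other 3 for 4 of the 90 named and tested genes (Dixon's ratio of gap to range above its 95% critical value), and chance gives about 1 in 20. Avp had 18.8 TPM in DMH replicate 1 and 0 to 1.81 TPM in the other 3 (ratio 0.903). Mc3r had 1.52 TPM in DMH replicate 2 and 2.33 to 2.45 TPM in the others (ratio 0.879). Fndc3c1 (0.0216 TPM) and Wfdc2 (0.405 TPM) were above 0 in DMH replicate 4 and listed at 0 in the others (ratio 1.0 for both).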

How the results depend on the processing

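Against the mean of the 4 regions the count of genes called higher was 512 to 860 and of genes called lower 256 to 462 over 28 alternatives. Leaving out single libraries gave 620 to 702 and 302 to 341 there, 135 to 297 and 24 to 97 against VMH (the lowest without VMH replicate 1, 97 without VMH replicate 2), 503 to 587 and 341 to 410 against DMH, 549 to 918 and 465 to 563 against PVH (549 without PVH replicate 1), and 1110 to 1247 and 526 to 572 against LHA. Genes separated in all libraries numbered 1447 above and 762 below, and 1469 to 2188 and 772 to 1127 with a library left out (2188 without ARH replicate 2). Leaving out a library cannot lower these 2 counts, so their rise says nothing about how stable they are. Genes called lower against VMH were 110 with DESeq2 and 97 with edgeR, against 51 with limma. The median log2 fold change over all genes against LHA was 0.176, and 0.027 after TMM rescaling.

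Deviations from region means gave r from -0.0936 to 0.0998 over 23 pairs of the same replicate number. These numbers do not follow the runs of library numbers, so this check cannot show shared mice or batches. Pairs of the same run had r from -0.0406 to 0.12 (median 0.0202, 18 pairs). Pairs of other runs had r from -0.146 to 0.116 (median -0.0127, 59 pairs). With the replicate block 663 genes were higher and 306 lower, and with the run block 662 and 316. Some fold changes changed sign: Npvf without PVH (-0.03), and Pmch without LHA (0.49) or VMH (0.37). With single libraries left out Pmch ran from -0.6 to 0.03, the latter without PVH replicate 1. Tshb changed sign with DESeq2 (-0.21) or edgeR (-0.2). In limma with libraries weighted equally, Cartpt, Bsx, Hmx2, Hmx3 and Ramp3 lost the call (adjusted p = 0.057, 0.078, 0.071, 0.089 and 0.073). Ddc lost it without PVH (0.89) and in limma with all 57 adult libraries in the fit (adjusted p = 0.053). The causes were not tested. Of 79 called genes that the text names, 60 stayed called and 77 kept their direction under every alternative that tested them. Genes whose summed counts missed the gene TPM, such as Kiss1, were left out of edgeR and DESeq2. With 14201960 to 19689276 estimated counts per library, low genes such as Bpifa1 and Fndc3c1 depend on the pseudocount.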
